A study of Homo sapiens with 6 samples.

Results

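MGMT and the other genes that undo or sense temozolomide damage were followed in U87 cells with and without knockdown of PRMT6. The set holds 21 of the 60612 genes in the table, and genes with counts near zero were kept. They were chosen by their place in repair, with earlier results of these data known. It comprises 3 genes of direct reversal (MGMT, ALKBH2, ALKBH3), 6 of mismatch repair (MSH3, MSH6, PMS2, PMS1, MLH3, EXO1), 9 of base excision repair of alkylated bases (MPG, APEX1, POLB, XRCC1, LIG3, APTX, APLF, FEN1, LIG1) and 3 of poly(ADP-ribose) signalling at breaks (PARP1, PARP2, PARG). U87 is a long-established cell line from a human glioblastoma. NC cells carried a scramble shRNA and shPRMT6 cells an shRNA against PRMT6, an arginine methyltransferase of histone H3, each delivered by lentivirus, and 3 libraries of bulk RNA were sequenced from each group. The study's methods describe stable cells kept under puromycin selection after infection. The cells of both groups were grown in medium with serum, and no temozolomide is named for them. The methods call the replicates independent. The labels number the knockdown libraries shRNA-1 to shRNA-3 and do not say whether these carry a single shRNA.

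Temozolomide methylates DNA, and its toxic product is a methyl group on the O6 position of guanine. MGMT takes this group off in a single step and is used up by it, which is why an MGMT gene silenced by methylation of its promoter marks gliomas that respond to the drug. Where the group stays, it pairs with thymine, and mismatch repair recognises that pair and turns it into breaks. The more abundant methylated purines are removed by the glycosylase MPG and closed by base excision repair, with PARP1 binding the nicks on the way.

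MGMT (ENSG00000170430) spans chromosome 10 from 129467184 to 129768007 on the plus strand in GENCODE 29 on GRCh38. Its promoter is shown because this was the repair gene without measurable RNA and because its CpG sites, the targets of DNA methylation, are what clinical tests of the gene read. The window runs from 250 bases before to 50 bases after the RefSeq start site, at chr10:129466991-129467290 of GRCh38.p14, plus strand, with each CpG in capitals.
MGMT: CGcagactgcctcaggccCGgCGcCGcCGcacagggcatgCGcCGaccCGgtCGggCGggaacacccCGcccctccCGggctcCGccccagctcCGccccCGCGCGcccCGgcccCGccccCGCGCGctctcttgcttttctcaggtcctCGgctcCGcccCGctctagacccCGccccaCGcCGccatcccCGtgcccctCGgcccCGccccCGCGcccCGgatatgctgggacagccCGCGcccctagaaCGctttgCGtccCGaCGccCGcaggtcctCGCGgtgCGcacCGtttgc
The 45 CpG sites in these 300 bases were more than in 96.5% of the 35116 RefSeq promoters of the same length, whose median was 14. DNA methylation was not measured in this series.

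Of the 20 repair genes with a promoter in the RefSeq table (all but POLB), 5 held a word of the E2F site, the sequence bound by the factors that switch on S phase genes. The words searched were TTTCCCGC, TTTCGCGC, TTTGCCGC and TTTGGCGC on both strands, and at least 1 of them lay in 3.31% of the 35116 promoters and in 4.1% of the 22199 promoters of protein-coding genes. Of these 5, 3 are printed, with the word in capitals: LIG1, the repair gene with the largest fall in RNA; EXO1, the mismatch repair gene that fell; and MSH3, the mismatch sensor in which a pair of words overlaps. They lie at chr19:48170295-48170594 (minus strand), chr1:241847954-241848253 (plus strand) and chr5:80654402-80654701 (plus strand) of GRCh38.p14.
LIG1: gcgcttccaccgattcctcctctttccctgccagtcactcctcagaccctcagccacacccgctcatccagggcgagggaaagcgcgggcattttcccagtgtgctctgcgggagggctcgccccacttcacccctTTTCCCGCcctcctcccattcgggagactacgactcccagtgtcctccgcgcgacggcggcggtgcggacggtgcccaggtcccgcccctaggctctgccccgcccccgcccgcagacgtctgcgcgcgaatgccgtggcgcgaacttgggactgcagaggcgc
EXO1: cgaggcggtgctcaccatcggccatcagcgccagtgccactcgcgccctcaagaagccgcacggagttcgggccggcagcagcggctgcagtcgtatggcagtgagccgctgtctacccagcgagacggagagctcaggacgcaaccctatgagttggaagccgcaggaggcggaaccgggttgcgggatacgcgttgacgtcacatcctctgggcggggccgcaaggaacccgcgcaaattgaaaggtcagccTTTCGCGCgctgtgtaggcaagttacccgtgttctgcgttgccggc
MSH3: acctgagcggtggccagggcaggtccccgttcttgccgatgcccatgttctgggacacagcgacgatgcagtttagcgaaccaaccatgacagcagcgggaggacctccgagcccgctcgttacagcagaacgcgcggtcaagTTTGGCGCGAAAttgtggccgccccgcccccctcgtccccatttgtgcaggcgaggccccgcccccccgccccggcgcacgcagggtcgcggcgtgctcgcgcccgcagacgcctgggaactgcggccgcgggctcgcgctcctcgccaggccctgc
In LIG1 the word began at position -114 from the start site and in MSH3 at -107, where 2 words on opposite strands overlapped. The other promoters with a word were those of MSH6 and PMS2. Of the 6 repair genes whose RNA fell, 2 (LIG1 and EXO1) held a word, and FEN1, MPG, XRCC1 and PARP1 had none of these letters in their windows, nor had MGMT. Of the 11 with a promoter that did not pass the test, 3 held one, and of the 2 that rose, 0. A match is a description of the sequence, and binding was not measured.

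PRMT6, the targeted gene, was at 9.33, 7.97 and 7.19 CPM (the count scaled to the size of its library, with TMM factors) in NC replicates 1 to 3 and at 3.57, 4.58 and 5.24 CPM in shPRMT6 replicates 1 to 3. The groups did not overlap, with a log2 fold change of -0.87 (SE 0.187, Benjamini-Hochberg adjusted p = 0.0225 by edgeR's quasi-likelihood test over the 18106 genes tested). PRMT6 RNA was thus at 54.7% of NC. This call was kept in 11 of 16 alternative fits. The libraries held 56388161 to 75887696 counts, and scaling factors ranged from 0.992 to 1.01. VIM, NES and CD44, known in glioma lines, were present in all libraries (summed FPKM 1232 to 1417 in NC and 1218 to 1343 in shPRMT6). Most of this sum was VIM, and NES was at 5.74 to 6.48 FPKM in NC and 6.85 to 6.94 in shPRMT6. The astrocyte genes AQP4, S100B and ALDH1L1, the leukocyte gene AIF1 and the oligodendrocyte gene MOG had 0 counts in every library. The astrocyte gene GFAP had 11 to 60 counts. The leukocyte list reached a summed FPKM of 58 to 99.6 in NC and 56.4 to 124 in shPRMT6, nearly all from CD68, a lysosomal protein. Summed FPKM of the neuron list, mostly from SNAP25, was 5.61 to 6.16 in NC and 5.11 to 6.04 in shPRMT6. The astrocyte and oligodendrocyte lists stayed at or below 0.206 in all libraries. The summed FPKM did not overlap between groups for EPCAM, CDH1 and KRT8 (epithelial; 1.05 to 1.13 in NC, 0.421 to 0.648 in shPRMT6) and for PECAM1, CDH5 and VWF (endothelial; 0.283 to 0.378 in NC, 0.426 to 0.625 in shPRMT6), and their part in the results was not tested.

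Of the 21 repair genes, 20 passed the filter on low counts, and MGMT did not. After knockdown, 6 of the 20 fell (PARP1, LIG1, FEN1, MPG, EXO1, XRCC1), 2 rose (MLH3, PARG), and 12 did not pass the test. The share that fell was 30%, against 9.06% of all 18106 genes tested, and the share that rose was 10%, against 9.51%. The members and the lists below were chosen with earlier results of these data known, so such shares describe them and test nothing. In 9 genes every shPRMT6 library lay below every NC library (45%, against 19.9% of all genes), and in 3 genes every shPRMT6 library lay above (15%, against 20.3%). The median log2 fold change was -0.17 over the 20 genes and -0.01 over all genes tested. In bulk RNA, less RNA per cell and fewer cells with that RNA cannot be told apart.

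**Figure D1:**
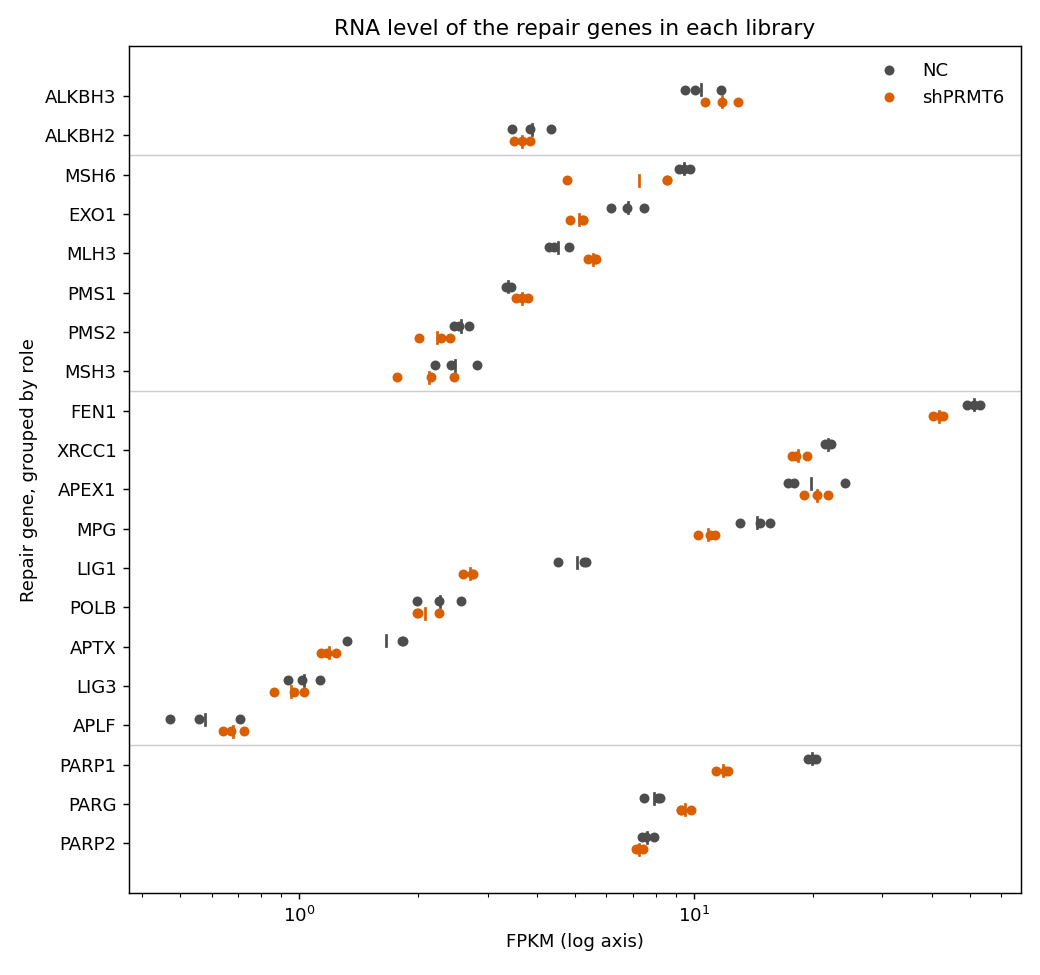
Each point is the FPKM of a repair gene in 1 library on a log axis, NC in grey and shPRMT6 in orange, with vertical bars at the mean of 3 libraries, and genes are grouped by role. FEN1 sat at the top near 51.1 in NC and APLF at the bottom near 0.579, and PARP1 and LIG1 showed the widest gaps between the groups; MGMT is not drawn because it had 0 counts in 5 of 6 libraries.

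Levels between genes can be compared on the FPKM scale, which accounts for transcript length. In NC, FEN1 was highest at 51.1 ± 1.93 FPKM (SD, n = 3), followed by XRCC1 at 21.8 ± 0.384, PARP1 at 19.9 ± 0.496 and APEX1 at 19.8 ± 3.78 FPKM. The range of APEX1 (17.3 to 24.1 FPKM) overlapped those of PARP1 and XRCC1, so its order with them is not resolved. MPG was at 14.5 ± 1.29, ALKBH3 at 10.4 ± 1.18 and MSH6 at 9.45 ± 0.301 FPKM. A middle group from PARG (7.94 ± 0.392) to ALKBH2 (3.88 ± 0.439) held 4 pairs of neighbours that could not be ordered. PMS2 (2.57 ± 0.118) and MSH3 (2.48 ± 0.313) were close to each other by FPKM. On the same scale, the ligase LIG3 (1.03 ± 0.096) and the scaffold APLF (0.579 ± 0.12) were the lowest of the genes tested. In all, 8 of the 20 pairs next to each other in rank overlapped in NC and 7 in shPRMT6, and overlaps of genes further apart were not counted. In shPRMT6, PARP1 was at 11.9 ± 0.454 FPKM, within the range of ALKBH3 (11.8 ± 1.15), and LIG1, at 5.05 ± 0.445 FPKM in NC, was at 2.7 ± 0.0822 FPKM, below PMS1 and ALKBH2.

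MGMT, the direct reversal enzyme, had 0 counts in NC replicates 1, 2 and 3 and in shPRMT6 replicates 1 and 2, and 4 counts in shPRMT6 replicate 3. The library with 4 counts was at 0.0591 CPM and 0.00716 FPKM, and the authors' table lists the other 5 at its value for genes without counts, 1e-04 FPKM. A count of 0 allows up to 3 counts, which is 0.0394 to 0.0536 CPM at the depth of these libraries and covers counting error only. Whole multiples of 4 stand out in the table, with 7927 entries at 4 against 2458 at 3 and 1437 at 5, so that a fragment may have been entered as 4 counts. The sources used here do not say so. On that scale the limit is 12 counts, or 0.158 to 0.214 CPM. APLF, the lowest of the other repair genes, was between 3.96 and 6.08 CPM in the same libraries, far above either limit. MGMT was among 4450 of the 19874 protein-coding genes (22.4%) with no more than 4 counts in all 6 libraries together. No fold change was computed, and a change in MGMT with knockdown was not detectable at this depth. Of its exon bases, 8.04% lie opposite AL157832.2, and the use of strand in counting is not given in the sources used here.

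The other direct reversal enzymes, which strip methyl groups from adenine and cytosine by oxidation, were measured in all libraries and did not pass the test. ALKBH2, which acts on double-stranded DNA, had 537, 799 and 733 counts in NC replicates 1 to 3 and 668, 614 and 643 counts in shPRMT6 replicates 1 to 3. This was 9.6, 10.5 and 11.7 CPM in NC and 10.5, 9.98 and 9.49 CPM in shPRMT6. The groups overlapped, with a log2 fold change of -0.09 (SE 0.116, Benjamini-Hochberg adjusted p = 0.657 by edgeR's quasi-likelihood test). ALKBH3, which prefers single strands and works with the ASCC complex, was at 27.1, 33.2 and 28.2 CPM in NC and at 30, 36.5 and 33 CPM in shPRMT6. Its groups overlapped too, with a log2 fold change of 0.17 (SE 0.116, adjusted p = 0.371). By an unadjusted p under 0.05 and by DESeq2, 0 of these 2 genes passed. Of all 18106 genes, 16.3% were lower and 16.3% higher at an unadjusted p under 0.05, and 15.7% were lower and 16.2% higher by DESeq2. None of ASCC1, ASCC2 and ASCC3 passed in the edgeR test, while 1 of the 3 was higher by an unadjusted p under 0.05 and 1 by DESeq2.

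Among the mismatch repair genes, EXO1 fell, MLH3 rose, and the mismatch sensors MSH6 and MSH3 and the endonuclease subunit PMS2 did not pass the test. MSH6 pairs with the common MutS subunit to read single-base mismatches such as the one left by temozolomide. It had 6737, 9666 and 7576 counts in NC and 7045, 3797 and 7464 counts in shPRMT6 replicates 1 to 3, which was 120, 127 and 121 CPM in NC and 111, 61.7 and 110 CPM in shPRMT6. Every knockdown library lay below NC, but most of the difference came from shPRMT6 replicate 2. The fitted log2 fold change of MSH6 came to -0.38 (SE 0.216, Benjamini-Hochberg adjusted p = 0.272 by edgeR's quasi-likelihood test), and -0.15 without that replicate (adjusted p = 0.231). MSH6 in replicate 2 lay -0.84 on the log2 scale from the mean of the other knockdown libraries. Of the 7487 genes above 20 CPM, 119 (1.59%) lay as low or lower there. FBXO11 overlaps 16.2% of the exon bases of MSH6 on the opposite strand.

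MSH3 takes the place of MSH6 in the complex that reads loops. It had 789, 1169 and 1103 counts in NC and 868, 689 and 1048 counts in shPRMT6, or 14.1, 15.4 and 17.7 CPM against 13.6, 11.2 and 15.5 CPM. The groups overlapped, with a log2 fold change of -0.23 (SE 0.151, Benjamini-Hochberg adjusted p = 0.356 by edgeR's quasi-likelihood test). Since MSH6 and MSH3 compete for the same partner, their ratio was computed from FPKM, so its level depends on the lengths used. It was 4.16, 4.02 and 3.34 in NC and 3.95, 2.68 and 3.46 in shPRMT6. The ranges overlapped, and the mean log2 ratio differed by -0.20 (shPRMT6 minus NC; SD 0.171 in NC and 0.285 in shPRMT6; p = 0.4, exact two-sided permutation test over 3 against 3 libraries, which cannot go below 0.1).

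PMS2, the nicking subunit of the MutL complex, had 1062, 1390 and 1234 counts in NC and 943, 1094 and 1139 counts in shPRMT6. On the CPM scale this was 19, 18.3 and 19.8 in NC and 14.8, 17.8 and 16.8 in shPRMT6, with no overlap between the groups. It did not pass the test, with a log2 fold change of -0.21 (SE 0.101, Benjamini-Hochberg adjusted p = 0.209 by edgeR's quasi-likelihood test). Of the 75-base stretches of PMS2 transcripts, 14.7% also occur in other genes, and the effect of this on its counts was not tested. PMS1, a MutL subunit of unclear role, was at 22 ± 0.451 CPM (SD, n = 3) in NC and 23.7 ± 0.78 CPM in shPRMT6, again without overlap and without passing the test (log2 fold change 0.11, adjusted p = 0.388). MLH3, a further MutL subunit, was at 44.5, 47.9 and 42.4 CPM in NC and at 53.2, 56 and 55.3 CPM in shPRMT6 and rose by a log2 fold change of 0.29 (SE 0.0728, adjusted p = 0.0385). EXO1, the nuclease that removes the strand with the mismatch, was at 37.2, 33.3 and 30.1 CPM in NC and at 23.8, 25.7 and 25.6 CPM in shPRMT6. It fell to 74.7% of NC (log2 fold change -0.42, SE 0.101, adjusted p = 0.0323).

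In base excision repair, 4 of 9 genes fell, 5 did not pass and 0 rose by edgeR's quasi-likelihood test. The share that fell was 44.4%, against 9.06% of all genes tested, while 9.51% of all genes rose. By an unadjusted p under 0.05, 5 were lower and 0 higher (16.3% each way over all genes), and the same counts came from DESeq2 (15.7% and 16.2%). The median log2 fold change of the 9 genes was -0.26. MPG, the glycosylase that starts the pathway by cutting out methylated purines, lies on chromosome 16 from 77007 to 85853. It had 1480, 1770 and 1717 counts in NC and 1157, 1236 and 1317 counts in shPRMT6, or 26.5, 23.3 and 27.5 CPM against 18.2, 20.1 and 19.4 CPM. The groups did not overlap, and MPG was at 74.7% of NC (log2 fold change -0.42, SE 0.0977, Benjamini-Hochberg adjusted p = 0.0293 by edgeR's quasi-likelihood test). NPRL3 overlaps 27.3% of the exon bases of MPG on the opposite strand, and the share of its reads in the count of MPG was not tested. The next enzymes, the endonuclease APEX1 and the polymerase POLB, did not pass the test. APEX1 was at 44.4 ± 8.49 CPM (SD, n = 3) in NC and 45.6 ± 3.33 CPM in shPRMT6 (log2 fold change 0.04, adjusted p = 0.879), and POLB at 11.2 ± 1.44 and 10.2 ± 0.726 CPM (log2 fold change -0.14, adjusted p = 0.524).

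XRCC1, the scaffold that gathers the enzymes of the last steps, had 4091, 5318 and 4421 counts in NC and 3989, 3547 and 3977 counts in shPRMT6. On the CPM scale this was 73.2, 69.9 and 70.8 in NC and 62.7, 57.6 and 58.7 in shPRMT6. The fall was to 83.7% of NC, small but without overlap (log2 fold change -0.26, SE 0.0629, Benjamini-Hochberg adjusted p = 0.0347 by edgeR's quasi-likelihood test). Its ligase partner LIG3 was at 15.8 ± 1.62 CPM (SD, n = 3) in NC and 14.6 ± 1.28 CPM in shPRMT6 and did not pass (log2 fold change -0.11, adjusted p = 0.564). Genes on the opposite strand overlap 17.5% of the exon bases of XRCC1 and 30.5% of those of LIG3. APTX, which removes adenylate left by a failed ligation, was at 34.5, 34.3 and 24.6 CPM in NC and at 22, 21.3 and 23.1 CPM in shPRMT6. Its groups did not overlap, yet the spread within NC was wide and the call was missed (log2 fold change -0.49, SE 0.144, adjusted p = 0.0605). APLF was at 4.92 ± 1.03 CPM in NC and 5.72 ± 0.335 CPM in shPRMT6 (log2 fold change 0.22, adjusted p = 0.458).

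FEN1 and LIG1, which trim the flap and seal the nick in long-patch repair and do the same for Okazaki fragments in DNA replication, both fell. LIG1 was at 35.9, 41.3 and 41.3 CPM in NC and at 21.5, 20.4 and 21.3 CPM in shPRMT6. The groups were far apart, and LIG1 was at 53.4% of NC, the largest fall among the repair genes (log2 fold change -0.91, SE 0.0876, Benjamini-Hochberg adjusted p = 0.0017 by edgeR's quasi-likelihood test). FEN1, the highest repair gene by FPKM, was at 140, 128 and 133 CPM in NC and at 109, 111 and 104 CPM in shPRMT6. It was at 80.9% of NC (log2 fold change -0.31, SE 0.06, adjusted p = 0.0167).

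**Figure D2:**
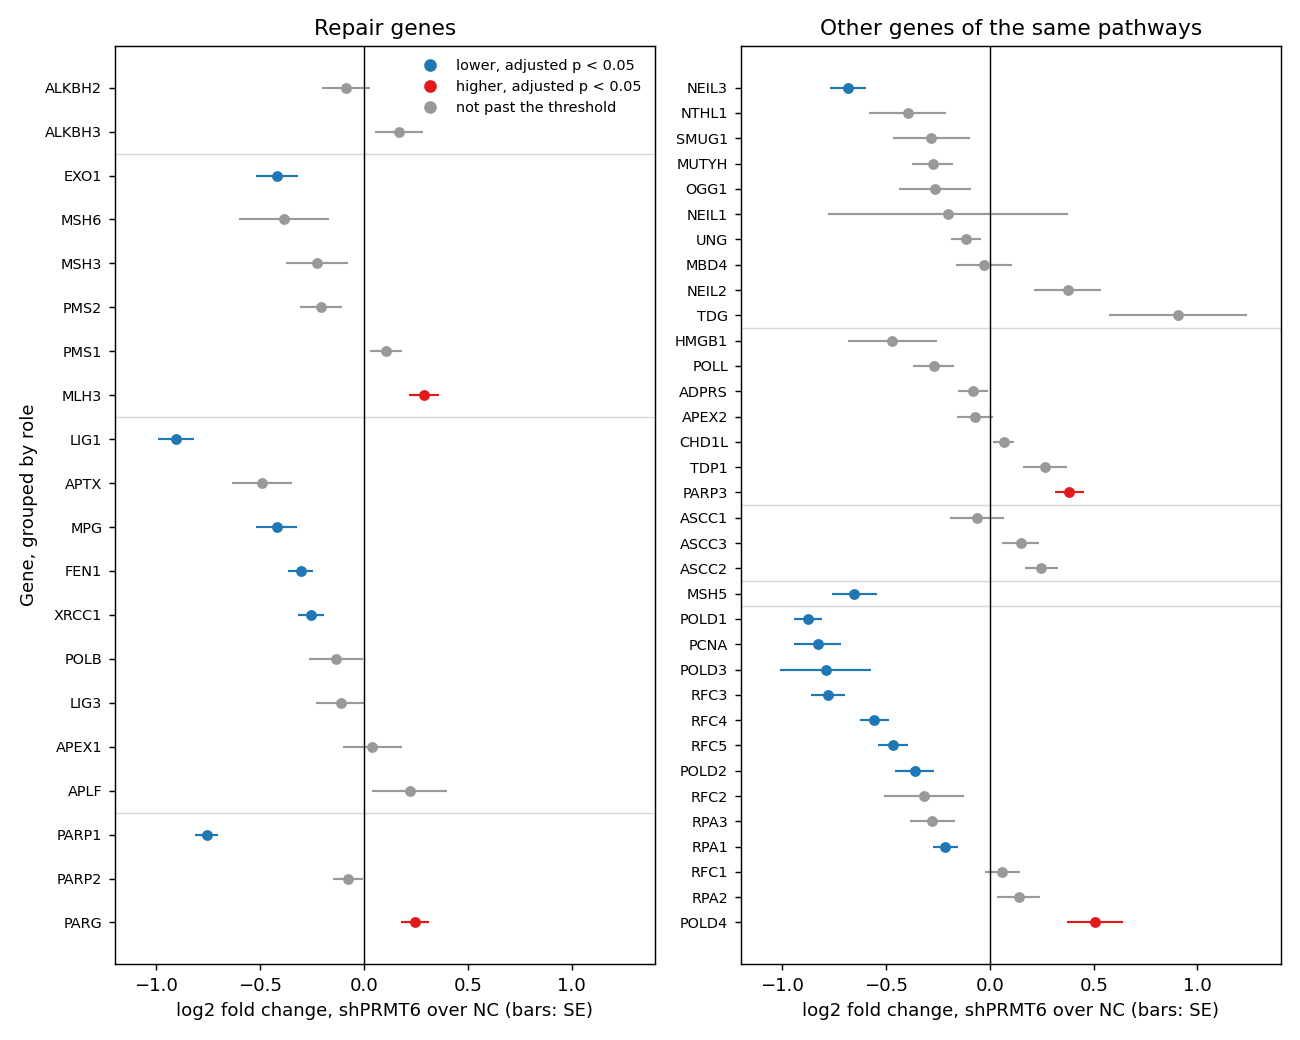
Points are log2 fold changes of shPRMT6 over NC from edgeR, with bars of 1 standard error, for the 20 repair genes tested on the left and the 34 other pathway genes tested on the right; blue and red mark genes lower or higher at an adjusted p under 0.05. LIG1 (-0.91) and PARP1 (-0.76) lie farthest to the left among the repair genes, and most of the sliding clamp, clamp loader and DNA polymerase delta genes lie to the left on the right panel.

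PARP1, the sensor that binds nicked DNA and builds poly(ADP-ribose), fell, PARG rose and PARP2 did not pass the test. PARP1 (chromosome 1, 226360691 to 226408079, minus strand) had 9359, 13010 and 10759 counts in NC and 6137, 6395 and 6891 counts in shPRMT6. This was 167, 171 and 172 CPM in NC and 96.4, 104 and 102 CPM in shPRMT6, with SDs of 2.6 and 3.87 CPM around means of 170 and 101. The groups were far apart, and the adjusted p was the smallest of the repair genes. PARP1 had a log2 fold change of -0.76 (SE 0.0559, Benjamini-Hochberg adjusted p = 0.000789 by edgeR's quasi-likelihood test), or 59.1% of NC. No other gene overlaps its exons, and 0.735% of its 75-base stretches occur elsewhere. PARP2, the close relative that acts beside PARP1, was at 37.1 ± 1.67 CPM (SD, n = 3) in NC and 35.2 ± 0.725 CPM in shPRMT6, with overlapping groups (log2 fold change -0.08, adjusted p = 0.514). PARG, the enzyme that degrades poly(ADP-ribose), was at 46.1, 50.1 and 48.9 CPM in NC and at 56.3, 59.8 and 56.1 CPM in shPRMT6. It rose to 119% of NC (log2 fold change 0.25, SE 0.0676, adjusted p = 0.0492), and 16.1% of its stretches are shared with PARGP1.

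**Figure D3:**
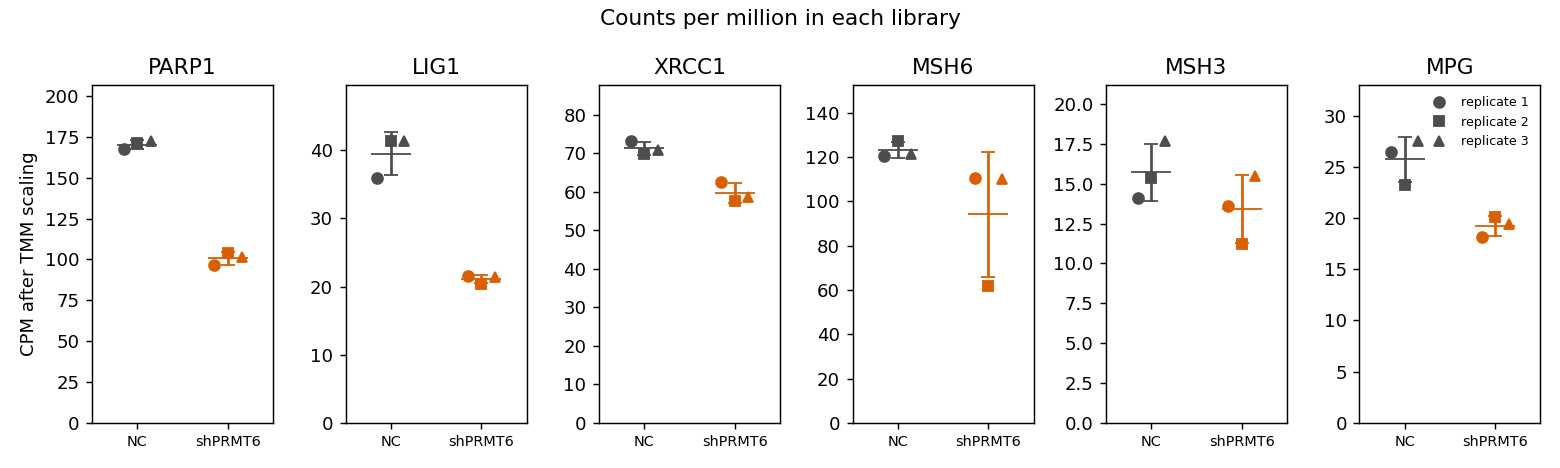
CPM after TMM scaling in each library for PARP1, LIG1, XRCC1, MSH6, MSH3 and MPG, with horizontal bars at the mean, error bars of 1 SD and symbols for the replicate number; each panel starts at 0. PARP1 and LIG1 separate widely, XRCC1 and MPG separate by less, MSH6 is low in shPRMT6 replicate 2 (61.7 CPM), and the groups of MSH3 overlap.

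The 8 calls differed in how far they held. PARP1 and LIG1 passed in each of the 16 alternative fits, among them those that left out 1 library, with adjusted p of at most 0.0159 and 0.0299. FEN1 passed in 10, MPG and EXO1 in 9, XRCC1 and MLH3 in 8 and PARG in 5 of the 16. The count of genes that fell was 2 when any one shPRMT6 library was left out, 3 without NC replicate 1, 4 without NC replicate 3 and 5 without NC replicate 2. The count that rose was 1 without NC replicate 2 and 0 when any other library was left out. The direction of these 8 genes was the same in each of the fits.

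**Figure D4:**
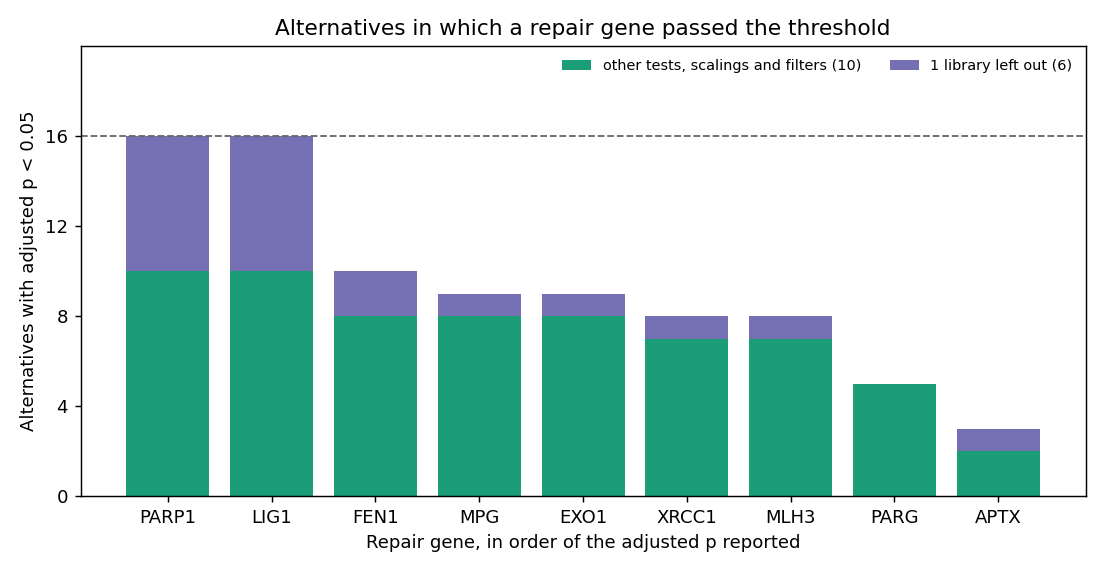
Bars give, for each repair gene called and for APTX, the number of 16 alternative fits with an adjusted p under 0.05, split into fits that leave out 1 library (purple) and all others (green); the dashed line marks 16. PARP1 and LIG1 reach the line, FEN1 stands at 10 and PARG at 5.

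Other genes of the same pathways were listed by role, and 34 of the 35 were tested. Of these, 10 fell and 2 rose (29.4% and 5.88%, against 9.06% and 9.51% of all genes tested), and 22 did not pass. MSH4, a meiotic MutS gene, had 0 counts in all 6 libraries. The falls lay mostly among the genes that load the sliding clamp and fill the gap, where 8 of 13 fell and 1 rose. PCNA, the clamp itself, was at 116, 133 and 129 CPM in NC and at 72.3, 79.9 and 60.8 CPM in shPRMT6 (log2 fold change -0.83, SE 0.113, Benjamini-Hochberg adjusted p = 0.00502 by edgeR's quasi-likelihood test). POLD1, the catalytic subunit of DNA polymerase delta, was at 76.9, 69.6 and 73.4 CPM in NC and at 39.6, 40.2 and 40 CPM in shPRMT6 (log2 fold change -0.88, SE 0.0653, adjusted p = 0.000814). Its partners POLD2 and POLD3 fell too (log2 fold change -0.36 and -0.79, adjusted p = 0.0436 and 0.0499), and POLD4 rose (0.51, adjusted p = 0.0444). The clamp loader genes RFC3, RFC4 and RFC5 fell (log2 fold change -0.78, -0.56 and -0.47), as did RPA1, which coats single strands (-0.21, adjusted p = 0.0499). RFC1, RFC2, RPA2 and RPA3 did not pass. Of the 16 alternative fits, POLD1, RFC3, RFC4 and RFC5 passed in 16, PCNA in 15, POLD2, POLD3 and POLD4 in 8 each and RPA1 in 7. With 1 library left out, POLD2, POLD3 and POLD4 each passed in 1 of 6 fits and RPA1 in 0. POLD3 was at 20.5, 20 and 11.7 CPM in shPRMT6 replicates 1 to 3.

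Of the 10 other glycosylases, NEIL3 was the 1 that fell (10%, against 9.06% of all genes). It went from 28.5, 29.2 and 27 CPM to 18.8, 17.1 and 16.9 CPM (log2 fold change -0.68, SE 0.0866, Benjamini-Hochberg adjusted p = 0.00382 by edgeR's quasi-likelihood test). It removes oxidised bases and unhooks crosslinks. None of the 10 rose by that test (9.51% of all genes). By an unadjusted p under 0.05, 2 were lower and 1 higher (16.3% each way over all genes). By DESeq2, 2 were lower and 2 higher (15.7% and 16.2% of all genes). MSH5, the partner of MSH4, was at 10.7, 11.6 and 11.2 CPM in NC and at 7.49, 7.33 and 6.51 CPM in shPRMT6 and fell (log2 fold change -0.65, adjusted p = 0.00971), although 41.4% of its stretches are shared with MSH5-SAPCD1, with which it overlaps. PARP3, a PARP that responds to double-strand breaks, rose from 42.1, 38 and 39.6 CPM to 51.4, 51.2 and 53.4 CPM (log2 fold change 0.38, adjusted p = 0.013). Of the 7 other genes of break processing, PARP3 was the 1 that passed by edgeR (14.3%, against 9.51% of all genes), and 0 fell (9.06%). At an unadjusted p under 0.05, 1 was lower and 2 higher (16.3% each way over all genes). With DESeq2, 2 were lower and 2 higher (15.7% and 16.2% of all genes).

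Many of these genes also serve DNA replication, and the S phase list moved in the same libraries. Of 32 S phase genes, 21 fell (65.6%, against 9.06% of all genes tested) and 0 rose (9.51% of all genes). Their median was -0.57 on the log2 scale, where all genes had -0.01. By an unadjusted p under 0.05, 23 of the 32 were lower and 1 higher (16.3% each way over all genes). The same counts came from DESeq2 (15.7% and 16.2% of all genes). FEN1, LIG1, EXO1, PCNA and POLD1 are among the genes known to peak with replication. Of the clamp loader genes, RFC3, RFC4 and RFC5 fell, and RFC1 and RFC2 did not pass. PARP1, MPG and XRCC1 fell as well, and their timing in the cell cycle was not examined. How far the fall of S phase RNA bears on the repair genes was not tested.

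Several repair genes start back to back with a neighbour on the opposite strand, and such pairs can share a promoter region. Within 1000 bases, 13 such neighbours of 11 repair genes were followed, and 11 were tested. Of these 11, 2 fell (18.2%) and 0 rose by edgeR's quasi-likelihood test, against 9.06% and 9.51% of all genes. By an unadjusted p under 0.05, 4 were lower and 0 higher (16.3% each way over all genes), and the same counts came from DESeq2 (15.7% and 16.2%). AIMP2, a scaffold of the tRNA synthetase complex whose start lies 120 bases from that of PMS2, fell from 18.9, 19.5 and 19.4 CPM to 12.2, 12.7 and 15.3 CPM (log2 fold change -0.52, Benjamini-Hochberg adjusted p = 0.0228). PMS2 itself did not pass. DNAJA1, a chaperone gene that starts 43 bases from APTX, fell (log2 fold change -0.24, adjusted p = 0.0295). Both calls were kept in 9 of 16 alternative fits. Of the 6 fits with 1 library left out, AIMP2 passed in 1 (without shPRMT6 replicate 3; adjusted p from 0.024 to 0.0876 over the 6) and DNAJA1 in 2 (without NC replicate 2 and without NC replicate 3; 0.0411 to 0.11). The neighbours of FEN1 and LIG1 that were tested, TMEM258 and ZSWIM9, did not pass (log2 fold change -0.08 and -0.31, adjusted p = 0.727 and 0.819), and ZSWIM9 was at 0.959 CPM in shPRMT6 replicate 2 against 10.6 CPM in replicates 1 and 3.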

How the data were processed

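The labels group the U87 RNA libraries as 3 NC and 3 shPRMT6. The authors deposited a table with the raw count of each gene in each library, not normalized, and its FPKM, with 1e-04 for genes without counts. FPKM was scaled by the authors to length and library size, and the deposited columns do not give the lengths. The submitters' processing notes name HISAT2, HTSeq 0.13.5 and GRCh38. Each of these columns entered the work, and 60401 of the 60612 identifiers were matched to a symbol.

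In R 4.3.3, edgeR 4.0.16 scaled the counts by TMM, removed low counts (filterByExpr) and fitted its quasi-likelihood model without a replicate block, with Benjamini-Hochberg adjustment over 18106 genes and a threshold of 0.05. CPM carry the TMM factors, and each error is the SD of 3 libraries. Alternatives used DESeq2 1.42.0, other scalings and filters, limma 3.58.1 on log2(FPKM + 1) and log2(FPKM + 0.1), and each library left out. Programs were tested on simulated data. No replicates were duplicates (chi-square per degree of freedom 39.1 to 63.1).

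Named genes were PRMT6, all 21 repair genes, other pathway genes past the threshold and opposite-strand neighbours whose starts lay within 1000 bases. S phase and marker lists are given as counts, medians and sums. Any gene named beyond these was chosen after its values were seen. The members and lists were chosen with earlier results of these data known. Some genes are not reported here. Positions, overlaps and shared 75-base stretches came from GENCODE 29 on GRCh38, and promoters from RefSeq on GRCh38.p14.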

Additional observations from a re-analysis of the deposited data

How the results depend on the processing

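Precision is limited by the 3 libraries in each group and, for low counts, by the steps of 4 in the table, and a level of 1 such step, as for MGMT, holds no readable change. The 6 repair genes that fell became 2 with a replicate block, 2 with unfiltered limma on log2(FPKM + 1), 2 at an adjusted p under 0.01 and 2 to 5 when 1 library was left out. The 2 that rose became 1 without scaling factors or with upper quartile factors, 0 with at least 1 count in any library, with the replicate block, with limma without a filter and at an adjusted p under 0.01, and 0 to 1 with 1 library left out. Of the other pathway genes, the 10 that fell became 6 with limma without a filter and 7 to 8 with 1 library left out, and the 2 that rose became 6 with DESeq2, 1 with at least 1 count in any library or limma without a filter, 0 with the replicate block or at an adjusted p under 0.01, and 0 to 2 with 1 library left out. Over all genes, 3362 calls became 5782 with DESeq2, 1858 with the replicate block, 1073 with limma without a filter, 1320 at an adjusted p under 0.01 and 1755 to 3183 with 1 library left out. The log2 ratio of MSH6 to MSH3 differed by -0.33 to -0.05 with 1 library left out. A replicate block cannot change its difference of -0.20, since with 3 libraries in each group both give the same mean. Same-numbered libraries did not deviate together (correlations -0.025, -0.017 and -0.030 of the deviations from the group means). Libraries with different numbers were not compared, and whether the numbers pair libraries was not tested further. With 1 library left out, the log2 fold change of APEX1 ranged from -0.054 to 0.21 (reversed without NC replicate 1, NC replicate 3 or shPRMT6 replicate 2), that of TMEM258 from -0.15 to 0.060 (reversed without NC replicate 1) and that of ZSWIM9 from -0.66 to 0.22 (reversed without shPRMT6 replicate 2). None of these 3 genes passed the threshold in any fit. APTX passed with DESeq2, without NC replicate 3 and with counts divided by 4, a scale chosen after seeing the data, on which 7 repair genes fell and 2 rose. The cause of these shifts was not tested, except that leaving out a library leaves fewer samples.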

Other observations

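TDG, the glycosylase that removes thymine and uracil opposite guanine, was chosen after its values were seen. It was at 8.73, 10.3 and 8.11 CPM in NC and at 11.7, 26.7 and 12.5 CPM in shPRMT6, where replicate 2 stood apart from the other libraries. The groups did not overlap, and the log2 fold change of 0.91 (SE 0.331) did not pass (Benjamini-Hochberg adjusted p = 0.111 by edgeR's quasi-likelihood test). Without that replicate it was 0.42 (adjusted p = 0.149), and of the 16 alternative fits, 1 passed, that of DESeq2 (adjusted p = 0.00982). The same library was the lowest for MSH6 (61.7 CPM) and for ZSWIM9 (0.959 CPM).

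RRM1 was the 1 gene of the 32 in the S phase list with a positive fold change, and it was named after its values were seen. This subunit of ribonucleotide reductase was at 214, 224 and 225 CPM in NC and at 248, 237 and 245 CPM in shPRMT6, without overlap (log2 fold change 0.14, SE 0.0519, Benjamini-Hochberg adjusted p = 0.122 by edgeR's quasi-likelihood test).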
